A study of Mus musculus with 6 samples.

Results

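Transcripts of 9 complement genes were followed in cultured dorsal root ganglion (DRG) neurons, the sensory neurons whose cell bodies sit beside the spinal cord, with and without oncomodulin (ONCM), a small EF-hand protein of the parvalbumin family known for promoting axon regrowth. The genes were taken by symbol, 9 of the 45777 genes in the deposited table: C1qa, C1qb, C1qc, C3, C4b, Cfb, C3ar1, C5ar1 and Serping1. The cultures came from C57BL/6 mice that the labels give as female and 8 weeks of age. The PBS group, the negative control, held 3 libraries, and the ONCM group held 3 libraries from cultures given recombinant protein at 100 ng/ml. The time was 12 hours in both groups. The labels call the libraries biological replicates without naming separate animals or cultures, so a p-value here measures the spread between libraries, which may be technical.

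Complement is a cascade of secreted proteins that tags targets for removal, recruits leukocytes and can open pores in membranes. The classical arm starts when C1q binds a target and its partner proteases cleave C4 and C2, while the alternative arm runs on C3 and factor B, and both meet at cleavage of C3. The fragments C3a and C5a act on G protein-coupled receptors, largely on myeloid cells, and inhibitors such as the C1 inhibitor hold the cascade in check. In nervous tissue complement is known for tagging synapses, debris and degenerating myelin for uptake by phagocytes.

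All 9 genes rose with ONCM by edgeR's quasi-likelihood test, where 23.9% of the 20354 tested genes rose and 48.3% changed in either direction. The rise was at least 2-fold for 8 of the 9, against 6.18% of tested genes, and Serping1, the inhibitor, was the exception. C5ar1 lay near that threshold, at 2.09-fold by edgeR and 1.99-fold by mean TPM. Its log2 fold change was 0.93 without PBS replicate 1. The PBS and ONCM libraries did not overlap for any of the 9 genes, where 27.6% of tested genes were higher in every ONCM library than in every PBS library and 55.6% did not overlap in either direction. The median log2 fold change of the 9 was 2.00, and that of all tested genes was -0.0021. The C1q chain genes moved most, C3, Cfb and C3ar1 came next at close to 4-fold, and C4b and C5ar1 moved between 2-fold and 3-fold.

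Library totals ran from 53770820 to 64477014 counts, and 3 counts in a library correspond to at most 0.0558 CPM (counts scaled to the library's TMM-adjusted size). Neuron markers such as Tubb3, Snap25 and Nefl summed to 18386 ± 299.2 CPM with PBS and 17405 ± 579.5 CPM with ONCM (SD, n = 3 per group), so the labelled cell type was present. Of the 9 neuron markers 2 rose, Tubb3 by 0.80 and Uchl1 by 0.24 on the log2 scale, and 5 fell, among them Rbfox3 and Snap25, with a median of -0.36. Of all tested genes 23.9% rose and 24.4% fell. Schwann cell markers summed to 2900 and 3246 CPM. Because counts were not separated by cell type, fewer cells of a type and less RNA per cell cannot be told apart. Xist, transcribed from the inactive X chromosome, averaged 0.53 CPM in the PBS group and 478 CPM in the ONCM group, and the Y-linked Ddx3y stood at 60.5 and 16.1 CPM. The Y-linked reads in both groups, and the near absence of Xist with PBS, are at odds with the label of female mice. The sex of the source cells and the treatment therefore cannot be told apart for any gene given here.

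**Figure D1:**
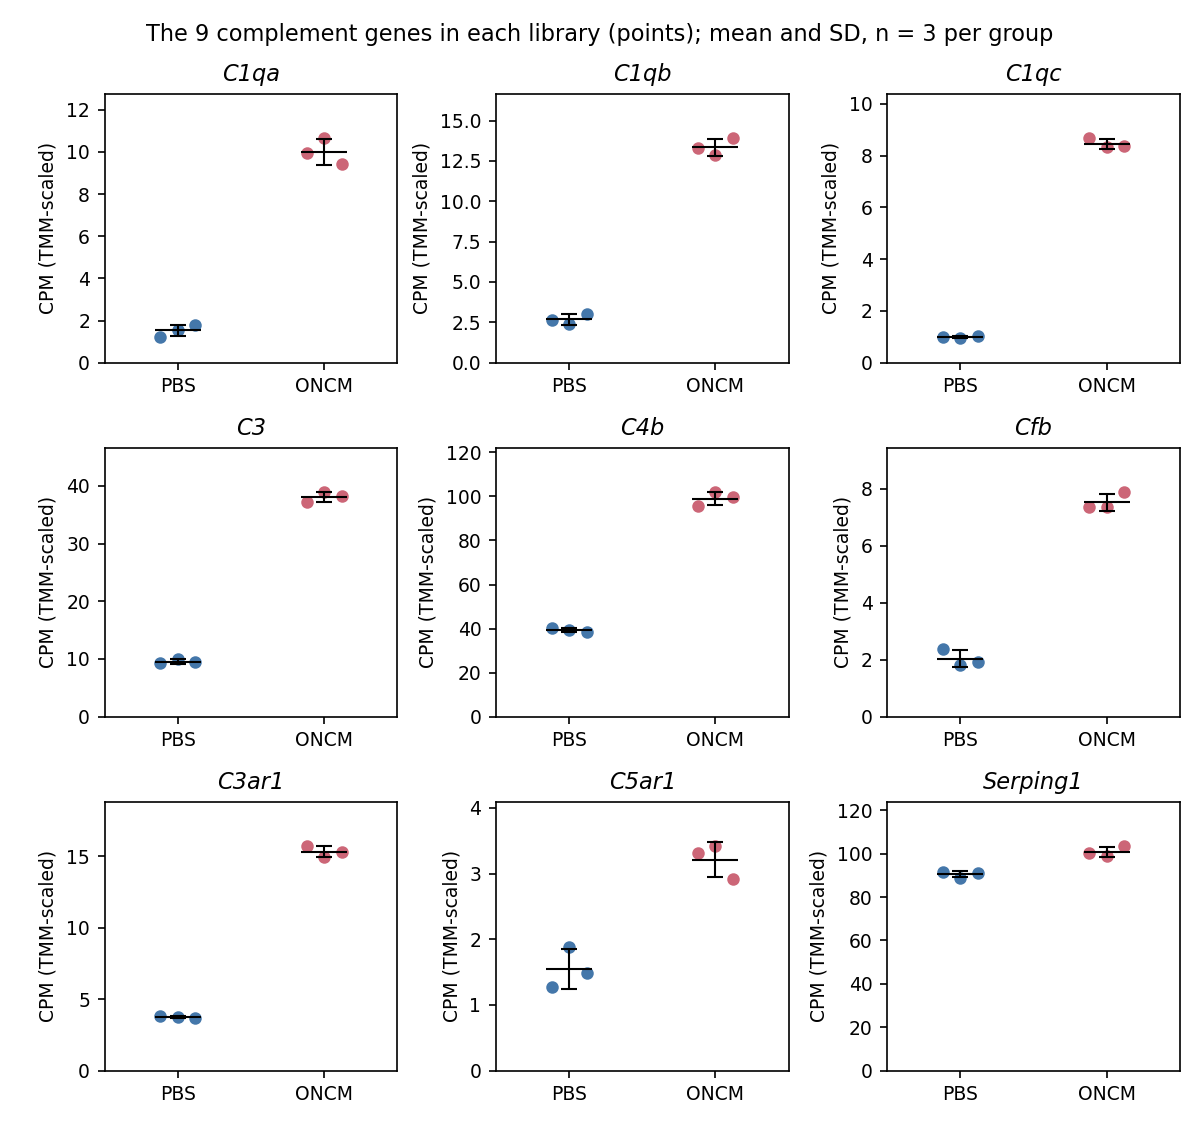
CPM (TMM-scaled, vertical axes starting at 0) of each of the 9 complement genes in the 3 PBS and the 3 ONCM libraries. Points are libraries, and bars give the mean and SD; the groups do not overlap in any panel, and Serping1 has the smallest gap between its groups relative to its level.

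C1q, the recognition molecule of the classical arm, is built from A, B and C chains whose genes lie side by side on chromosome 4 (RefSeq, GRCm38.p6, the build of all positions here) in the order C1qb (136880126 to 136886200), C1qc (136889801 to 136892936) and C1qa (136895916 to 136898844). The PBS libraries held 1.24, 1.57 and 1.78 CPM of C1qa, and the ONCM libraries held 9.95, 10.6 and 9.42 CPM. Every ONCM library was far above the highest PBS library of this gene. C1qa rose 6.56-fold (log2 fold change 2.71, SE 0.12, edgeR adjusted p = 1.41e-12). For C1qb the PBS libraries gave 2.63, 2.38 and 3.03 CPM and the ONCM libraries 13.3, 12.9 and 13.9 CPM. It rose 4.98-fold (log2 fold change 2.32, SE 0.09, edgeR adjusted p = 4.86e-13). C1qc was the lowest of the chains with PBS and differed least between its replicates, at 1.01, 0.948 and 1.02 CPM. With ONCM it reached 8.66, 8.31 and 8.36 CPM, a rise of 8.50-fold (log2 fold change 3.09, SE 0.11, edgeR adjusted p = 1.22e-13). Ordered by log2 fold change among all tested genes, C1qc was number 124, C1qa number 184 and C1qb number 268.

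The chains join in equal numbers in the C1q protein, and their transcript levels can be set side by side on the deposited TPM scale, which corrects for transcript length. Summed over the chains, TPM went from 12.1 ± 1.18 with PBS to 71.1 ± 1.15 with ONCM (SD, n = 3 per group). With PBS the C1qb transcript made up 53.5%, 48.0% and 51.3% of that sum, and with ONCM 41.1%, 39.8% and 43.2%. C1qc made up 20.9%, 19.9% and 18.1% with PBS and 27.6%, 26.7% and 26.9% with ONCM. The shares of C1qb were lower, and those of C1qc higher, in every ONCM library than in every PBS library, whereas the shares of C1qa overlapped between the groups. The transcripts of the chains were therefore closer to equal levels with ONCM. These shares were not tested, and each PBS value of C1qc rests on 53 to 65 counts.

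**Figure D2:**
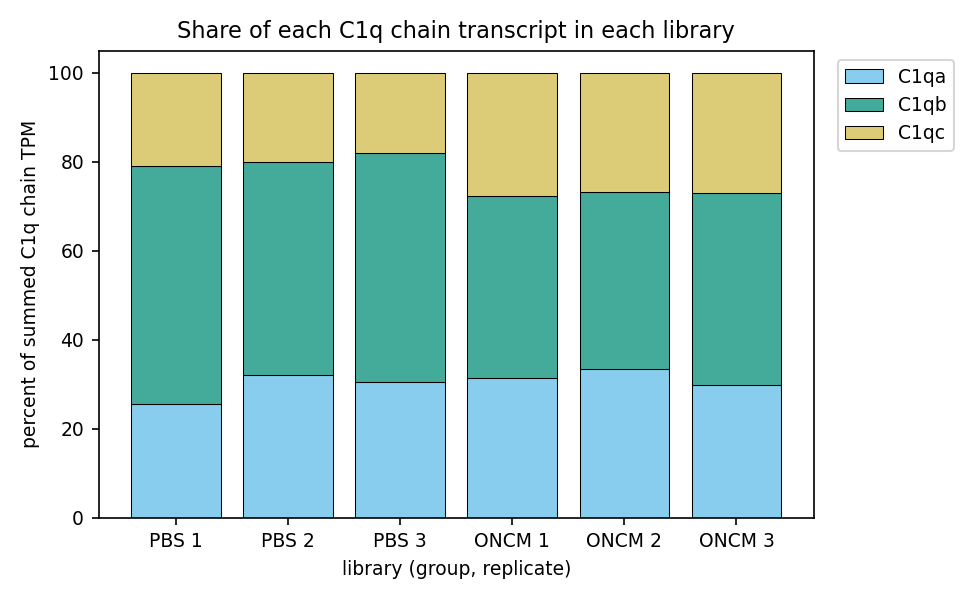
Stacked bars give the percent of the summed C1q chain TPM (vertical axis) taken by C1qa, C1qb and C1qc in each library (horizontal axis, group and replicate). C1qc takes 18.1% to 20.9% in the PBS libraries and 26.7% to 27.6% in the ONCM libraries, and C1qb takes a smaller part with ONCM.

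The neighbouring C1qb and C1qc genes share a strand, and the 250 bases upstream of a start site of each are shown because these genes moved together. The stretches come from RefSeq's promoter table (GRCm38.p6), minus strand, chr4:136886201-136886450 for C1qb and chr4:136892915-136893164 for C1qc, and the table held such a stretch for 5 of the 9 genes. Capitals mark GAGGAA, a core bound by transcription factors of the ETS family such as the myeloid factor PU.1, on either strand.
C1qb: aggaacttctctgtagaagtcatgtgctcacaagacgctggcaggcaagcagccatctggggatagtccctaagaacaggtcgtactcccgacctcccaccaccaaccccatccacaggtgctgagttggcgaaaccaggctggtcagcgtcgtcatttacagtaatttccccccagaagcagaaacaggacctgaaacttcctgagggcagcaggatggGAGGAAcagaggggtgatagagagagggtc
C1qc: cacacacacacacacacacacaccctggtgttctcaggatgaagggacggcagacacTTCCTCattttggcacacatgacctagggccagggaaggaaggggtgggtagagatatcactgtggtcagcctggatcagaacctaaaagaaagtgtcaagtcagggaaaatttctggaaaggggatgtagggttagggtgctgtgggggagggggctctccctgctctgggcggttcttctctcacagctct
The match lay at bases -30 to -25 from the start site in C1qb and, on the opposite strand, at -193 to -188 in C1qc. The start site used for C1qc lay inside the gene's span, which ends at 136892936, so that stretch overlapped the span. It occurred in 2 of the 5 stretches, and in 23.3% of the 32851 stretches of this length in the table. A match of letters is not a binding site.

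C3, the central component through which the arms of the cascade meet, lies on chromosome 17 (57203967 to 57228136). Its levels were 9.25, 10.01 and 9.43 CPM in the PBS libraries, against 37.2, 38.9 and 38.3 CPM in the ONCM libraries. The replicates lay close together in each group and far apart between groups, and C3 rose 3.99-fold (log2 fold change 2.00, SE 0.05, edgeR adjusted p = 2.05e-15). C4b, the C4 component cleaved by the C1 complex, lies in the major histocompatibility region of the same chromosome (34728139 to 34743902). It went from 40.4, 39.2 and 38.3 CPM with PBS to 95.7, 101.8 and 99.6 CPM with ONCM. That rise was 2.52-fold (log2 fold change 1.33, SE 0.04, edgeR adjusted p = 4.37e-15). Cfb, which encodes factor B, the protease subunit of the alternative arm's C3 convertase, lies in that region too (34856374 to 34862514). It was scarce with PBS, at 2.37, 1.81 and 1.92 CPM, and stood at 7.36, 7.36 and 7.88 CPM with ONCM. Its rise of 3.69-fold (log2 fold change 1.88, SE 0.11, edgeR adjusted p = 1.27e-10) was nearer to that of C3 than to that of C4b.

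C4b has a near-identical copy, C4a, and the separate values of the pair are uncertain. In GENCODE transcripts of the same genome build, 35.2% of the 50-base windows of the longest C4b transcript, and 16.5% of its 100-base windows, occurred exactly in the longest C4a transcript. C4a took 9.56% of the reads of the pair with PBS and 7.37% with ONCM, and it rose by 0.93 on the log2 scale (SE 0.09). With the reads of both copies added together, C4 averaged 43.5 ± 1.03 CPM with PBS and 107.0 ± 2.72 CPM with ONCM (SD, n = 3 each), with a log2 fold change of 1.30. The rise of C4b was thus nearly the same when the copies were counted as 1 gene.

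The 250 bases upstream of C3 (chr17:57228137-57228386, minus strand) are shown because they held a match to TTGCNNAA, a motif of the C/EBP factors known from acute-phase genes. Those upstream of C3ar1 (chr6:122856158-122856407, minus strand) held, on the opposite strand, a match to a decamer motif of NF-kB. Capitals mark the matches.
C3: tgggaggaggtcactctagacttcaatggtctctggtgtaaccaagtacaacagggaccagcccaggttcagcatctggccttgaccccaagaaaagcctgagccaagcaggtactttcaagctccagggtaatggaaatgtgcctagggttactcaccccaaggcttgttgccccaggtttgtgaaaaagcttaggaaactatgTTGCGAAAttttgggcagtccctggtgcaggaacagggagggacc
C3ar1: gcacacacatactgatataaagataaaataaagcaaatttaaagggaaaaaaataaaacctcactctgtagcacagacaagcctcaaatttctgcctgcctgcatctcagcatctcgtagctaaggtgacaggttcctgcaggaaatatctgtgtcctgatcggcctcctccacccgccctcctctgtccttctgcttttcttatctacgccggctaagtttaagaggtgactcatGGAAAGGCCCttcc
The C3 match lay at bases -45 to -38 and the C3ar1 match at -14 to -5. Of the 5 stretches searched, only that of C3 held TTGCNNAA and only that of C3ar1 held the NF-kB motif. TTGCNNAA occurred in 9.56% and the NF-kB motif in 1.41% of all stretches in the table, counting both strands. Here too a match of letters is not a binding site. The STAT motif TTCNNNGAA and a paired GAAA motif of interferon regulatory factors, held by 7.02% and 2.98% of all stretches, were not in these windows of C1qb, C1qc, C3, C3ar1 or C5ar1. The C5ar1 window (chr7:16259339-16259588, minus strand) lay mostly inside the gene's span, which ends at 16259540. Little sequence upstream of that end was therefore searched for C5ar1.

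The receptors for the released fragments also rose. C3ar1, the receptor for C3a (chromosome 6, 122847140 to 122856157), stood at 3.82, 3.72 and 3.69 CPM with PBS. With ONCM it stood at 15.7, 14.9 and 15.3 CPM, a rise of 4.08-fold (log2 fold change 2.03, SE 0.08, edgeR adjusted p = 1.61e-13). Its replicates were nearly alike within each group, and its change was as large as that of C3. C5ar1, the receptor for the inflammatory fragment C5a (chromosome 7, 16246743 to 16259540), had the lowest mean TPM of the 9 in both groups. It went from 1.27, 1.88 and 1.49 CPM to 3.31, 3.41 and 2.92 CPM, a rise of 2.09-fold (log2 fold change 1.06, SE 0.15, edgeR adjusted p = 1.37e-05). As a difference in log2(TPM + 1), C5ar1 gave 0.68 (limma adjusted p = 6.17e-04, range 1.26e-07 to 7.14e-04 over its alternatives). C5ar2, a second C5a receptor 2589 bases away from C5ar1, had 7 to 22 counts in a library and did not pass (log2 fold change 0.03, SE 0.46).

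Serping1 encodes the C1 inhibitor, a serpin that blocks the proteases C1r and C1s, and lies on chromosome 2 (84765360 to 84775444). The PBS libraries held 91.6, 88.8 and 91.1 CPM of it, and the ONCM libraries 100.2, 98.9 and 103.3 CPM. The groups did not overlap, but the rise was only 1.11-fold (log2 fold change 0.16, SE 0.03, edgeR adjusted p = 8.52e-04). The Serping1 value was 0.09 on the log2(TPM + 1) scale (limma adjusted p = 0.0268, range 5.97e-05 to 0.027 over its alternatives). By transcript length Serping1 was the most abundant of the 9 in every library, at 126.1 ± 2.55 TPM with PBS and 134.5 ± 1.30 TPM with ONCM (SD, n = 3 per group).

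On the TPM scale the order of the other genes differed between the groups. With PBS, C4b (18.4 ± 0.593 TPM) stood above C1qb (6.14 ± 0.720), C3 (4.99 ± 0.408), C1qa (3.56 ± 0.606), C1qc (2.36 ± 0.084), C3ar1 (2.20 ± 0.055), Cfb (1.87 ± 0.274) and C5ar1 (1.54 ± 0.295). The libraries of C1qb overlapped with those of C3, and those from C1qc down to C5ar1 overlapped with the next in order, although C1qc was above C3ar1, and C3ar1 above Cfb, in every PBS library. C1qb and C3, and likewise Cfb and C5ar1, changed order between libraries and did not differ beyond their spread. With ONCM, C4b (44.6 ± 1.60 TPM) was followed by C1qb (29.4 ± 0.775), C1qa (22.5 ± 1.63), C1qc (19.2 ± 0.486), C3 (18.2 ± 0.538), C3ar1 (8.64 ± 0.224), Cfb (6.67 ± 0.177) and C5ar1 (3.07 ± 0.289). Among these neighbours only C1qc and C3 overlapped, with C1qc the higher in every ONCM library. C3 stood above C1qa and C1qc in every PBS library, and below C1qa in every ONCM library.

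The other complement genes were more mixed. Of 45 further genes, 35 had enough counts to test, and 16 rose, 6 fell and 13 did not pass, with a median log2 fold change of 0.18. That is 45.7% rising and 17.1% falling, where 23.9% and 24.4% of all tested genes did so. Among initiating factors 7 of 9 tested genes rose and 0 fell. C1s1, the protease that cleaves C4 and C2, rose from 6.10 ± 0.330 to 12.2 ± 0.118 CPM, and its activator C1ra rose by 0.53 on the log2 scale. Masp1, a protease of the lectin arm, rose from 10.9 ± 0.354 to 15.9 ± 1.31 CPM, and Cfp, which encodes the alternative-arm stabiliser properdin, rose from 2.00 ± 0.129 to 3.79 ± 0.239 CPM. C1rb rose as well, by 0.69, but without ONCM replicate 3 its call was lost (0.59, edgeR adjusted p = 0.0531, range 0.0097 to 0.0531 over its alternatives). C1s2 and Masp2 did not pass. Cfp lies on the X chromosome, and Fcna, Fcnb and Cfd had at most 8 counts in a library and were not tested.

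The mannose-binding lectin genes Mbl1 and Mbl2, whose proteins recognise sugars and start the lectin arm, rose from very low levels. Mbl2 had 16, 7 and 19 counts with PBS and 58, 40 and 37 with ONCM, a log2 fold change of 1.76 (SE 0.35). Mbl1 had 12, 6 and 8 counts with PBS and 69, 55 and 9 with ONCM, so ONCM replicate 3 lay inside the PBS range by CPM. Its log2 fold change was 2.42 (SE 0.65, edgeR adjusted p = 0.00988). Without PBS replicate 3 the call was lost (adjusted p = 0.0515, range 2.7e-06 to 0.0515 over its alternatives), and on the log2(TPM + 1) scale the difference was 0.44 (limma adjusted p = 4.51e-04). The deposited TPM of Mbl1 put ONCM replicate 3 at 0.394, with the other ONCM libraries at 0.530 and 0.381 and the PBS libraries at 0.045 to 0.076, so its count and TPM columns disagreed for that library.

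Central and terminal components moved in both directions, with 2 of 5 tested genes (C2 and C4a) raised and 2 lowered. The separate value of C4a is uncertain, since it may share reads with C4b. With the reads of that pair summed, 15 of 34 other tested complement genes of all roles rose and 6 fell. Of all tested genes 23.9% were raised and 24.4% lowered. C2, the partner of C4 in the classical convertase, rose from 2.06 ± 0.359 to 3.42 ± 0.170 CPM. Hc, the mouse gene for C5, went from 3.17, 3.50 and 3.32 CPM with PBS to 1.84, 2.07 and 1.59 CPM with ONCM. It fell by 0.86 on the log2 scale (SE 0.13, edgeR adjusted p = 3.50e-05), opposite in direction to C3 and to the C5a receptor gene C5ar1. C7, a component of the membrane pore, fell by 0.65 (SE 0.20) from 1.16 ± 0.067 CPM. C8g did not pass, and C6, C8a, C8b and C9 had at most 9 counts in a library and were not tested, with C6 at 0 in every library.

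Regulators moved in both directions, and 4 of 14 tested rose and 4 fell, or 28.6% each way, near the shares of all tested genes. Cd55, the membrane protein that breaks up C3 convertases on a cell's own surface, had 238.8, 228.7 and 233.1 CPM in the PBS libraries against 123.5, 116.5 and 121.5 CPM in the ONCM libraries. It fell by 0.95 on the log2 scale (SE 0.03, edgeR adjusted p = 4.74e-14), and its copy Cd55b fell by 0.96 (the pair may share reads). Susd4, another inhibitor of convertases, fell from 97.5 ± 2.36 to 59.4 ± 2.86 CPM. Cd59a, which blocks pore assembly, rose from 91.2 ± 2.36 to 127.3 ± 3.56 CPM, and the related Cd59b rose by 0.52. The soluble factors Cfi and Vtn rose by 0.70 and 0.74. Csmd1 fell by 0.14, a call lost without PBS replicate 1 (edgeR adjusted p = 0.0597), without PBS replicate 2 (edgeR adjusted p = 0.0576) and as log2(TPM + 1) (limma adjusted p = 0.421), with a range of 0.00202 to 0.423 over its alternatives. Clu, the clusterin gene and the most abundant of these by CPM at 667 ± 5.65 and 672 ± 34.9, did not pass, nor did Cr1l, Cd46, C4bp, Csmd2 or Csmd3.

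Among other receptors 3 of 7 tested genes rose and 0 fell, where 23.9% and 24.4% of all tested genes did so. Itgam and Itgb2, which together encode the leukocyte integrin complement receptor 3, both rose, Itgam from 1.07 ± 0.284 to 3.77 ± 0.204 CPM and Itgb2 from 1.39 ± 0.306 to 6.36 ± 0.387 CPM. Cr2, the receptor for C3d known from B cells and follicular dendritic cells, had 34, 21 and 23 counts with PBS and 195, 234 and 168 with ONCM, and rose by 3.00 on the log2 scale (SE 0.19, edgeR adjusted p = 1.97e-10). Itgax, C5ar2 and C1qbp did not pass. Cd93 did not pass either (0.18, edgeR adjusted p = 0.0658), though it passed with the replicate block (adjusted p = 0.0312), without PBS replicate 2 (adjusted p = 0.0142) and without ONCM replicate 3 (adjusted p = 0.0294), with a range of 0.0142 to 0.409 over its alternatives. Vsig4, a phagocyte receptor for C3 fragments, had no count in any library.

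**Figure D3:**
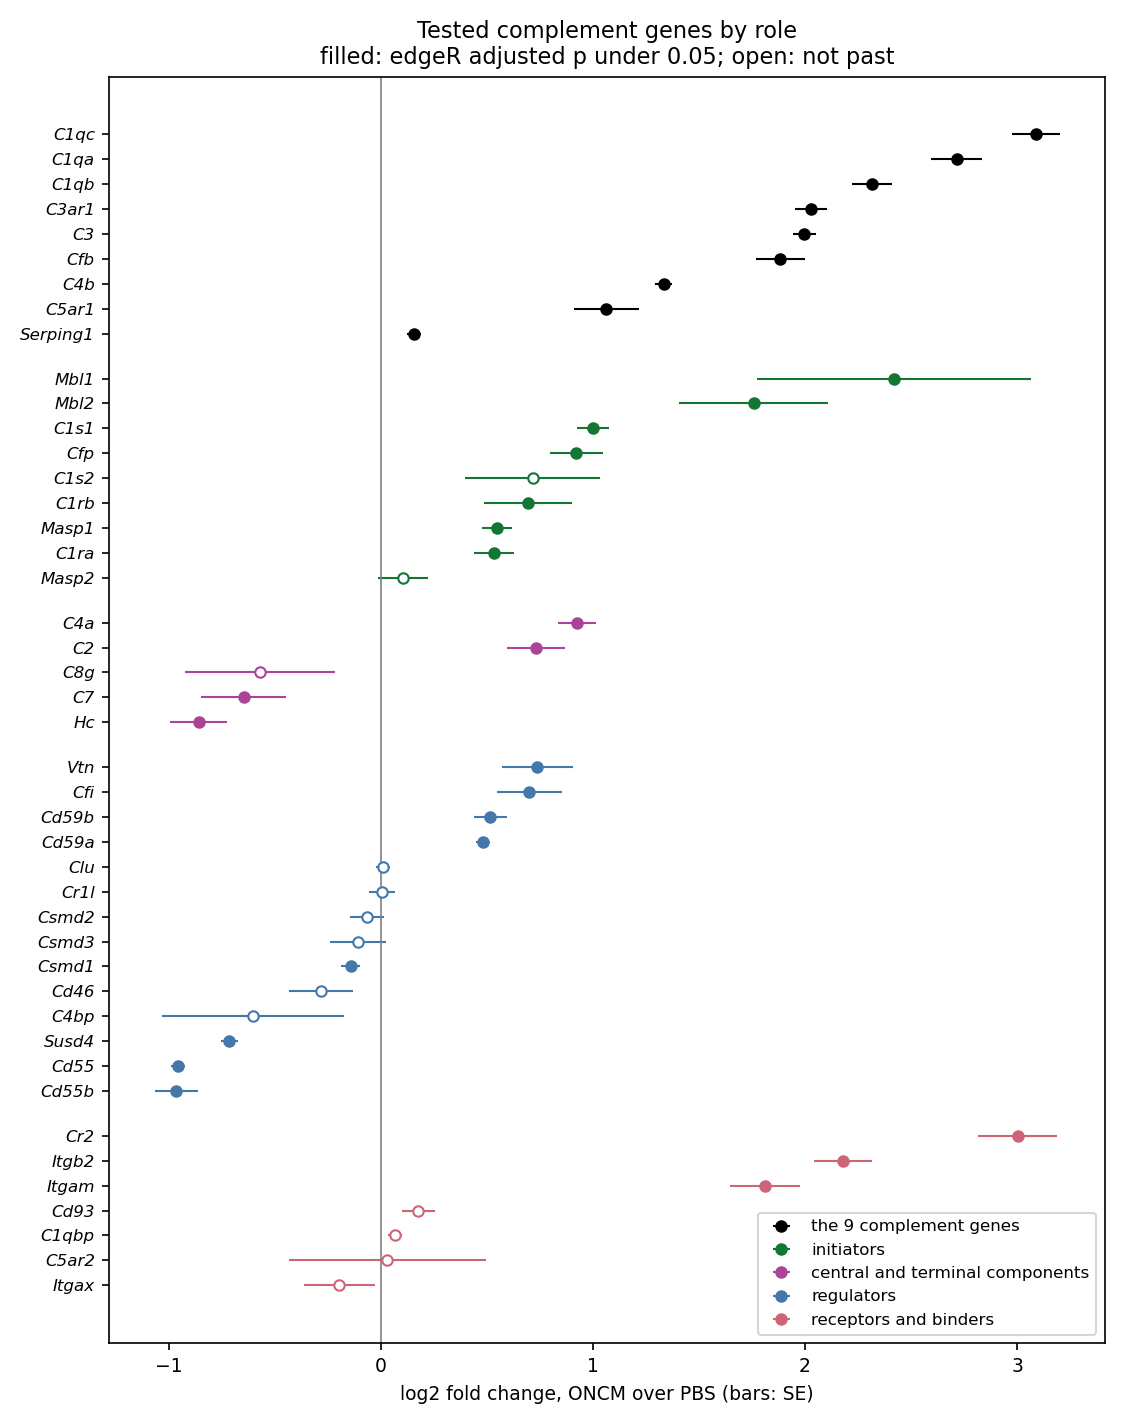
Log2 fold change of ONCM over PBS (horizontal axis, bars give the SE) for the 9 complement genes and the 35 other tested complement genes, grouped by role. Filled points passed edgeR at an adjusted p under 0.05 and open points did not; the 9 genes lie to the right of 0, while Hc, C7, Cd55, Cd55b, Susd4 and Csmd1 are filled points to the left.

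Macrophage markers moved with the complement genes. Of 15 markers 14 rose, where 23.9% of all tested genes did so. The summed level of the markers was 52.7 to 57.5 CPM in the PBS libraries and 168.2 to 177.0 CPM in the ONCM libraries, a ratio of 3.13. The defining markers Csf1r, Adgre1 and Cd68 rose from 6.56, 1.72 and 12.9 CPM to 16.4, 7.80 and 29.1 CPM, and Cx3cr1 did not pass. The 14 rises ran from 1.61-fold for Mrc1 to 11.5-fold for Trem2, which had 8, 6 and 7 counts with PBS. Tyrobp at 5.70-fold and Ctss at 5.07-fold also rose more than C1qb at 4.98-fold. The summed level therefore does not stand for each marker. None of the 15 was at 0 in both groups. Taken as a percent of that summed level, C1qa went from 2.78 ± 0.549 to 5.78 ± 0.326, C1qb from 4.83 ± 0.503 to 7.71 ± 0.391 and C1qc from 1.79 ± 0.039 to 4.88 ± 0.240 (SD, n = 3 per group). C3, Cfb and C3ar1 kept closer to the markers, with ratios of ONCM to PBS of 1.27, 1.19 and 1.31 on this measure. C4b, C5ar1 and Serping1 were lower on it with ONCM, at ratios of 0.805, 0.661 and 0.356. The part of macrophage RNA in the rises was not tested.

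Summed markers of other cells had smaller ratios than those of macrophages. The counts of raised or lowered markers below stand beside 23.9% of all tested genes that rose and 24.4% that fell. Fibroblast markers summed to 324.7 to 328.8 CPM with PBS and 451.0 to 469.7 CPM with ONCM, a ratio of 1.41, with 4 of 7 raised and Pdgfrb lowered. Per summed fibroblast marker level, the ratio of ONCM to PBS was 2.83 for C3, 1.79 for C4b and 0.791 for Serping1. Endothelial markers had a ratio of 1.20 with 3 of 6 raised, Schwann cell markers 1.12 with 4 of 7 raised, and satellite glia markers 1.05 with 1 of 5 raised. Neutrophil markers summed to 2.38 to 3.06 CPM with PBS and 5.26 to 5.43 CPM with ONCM. Of these, 3 of 6 tested rose, by 3.78 for Ly6g, 1.55 for Cxcr2 and 1.19 for Csf3r on the log2 scale, and the change of Ly6g was above that of every macrophage marker. In contrast, S100a8 and S100a9 had means of 0.487 and 0.743 CPM in the PBS group and 0.295 and 0.483 CPM in the ONCM group and did not pass. Lymphocyte markers summed to at most 1.73 CPM in any library, and the 1 that could be tested, Cd79a, did not pass. The part of these cells in the complement values was not tested.

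**Figure D4:**
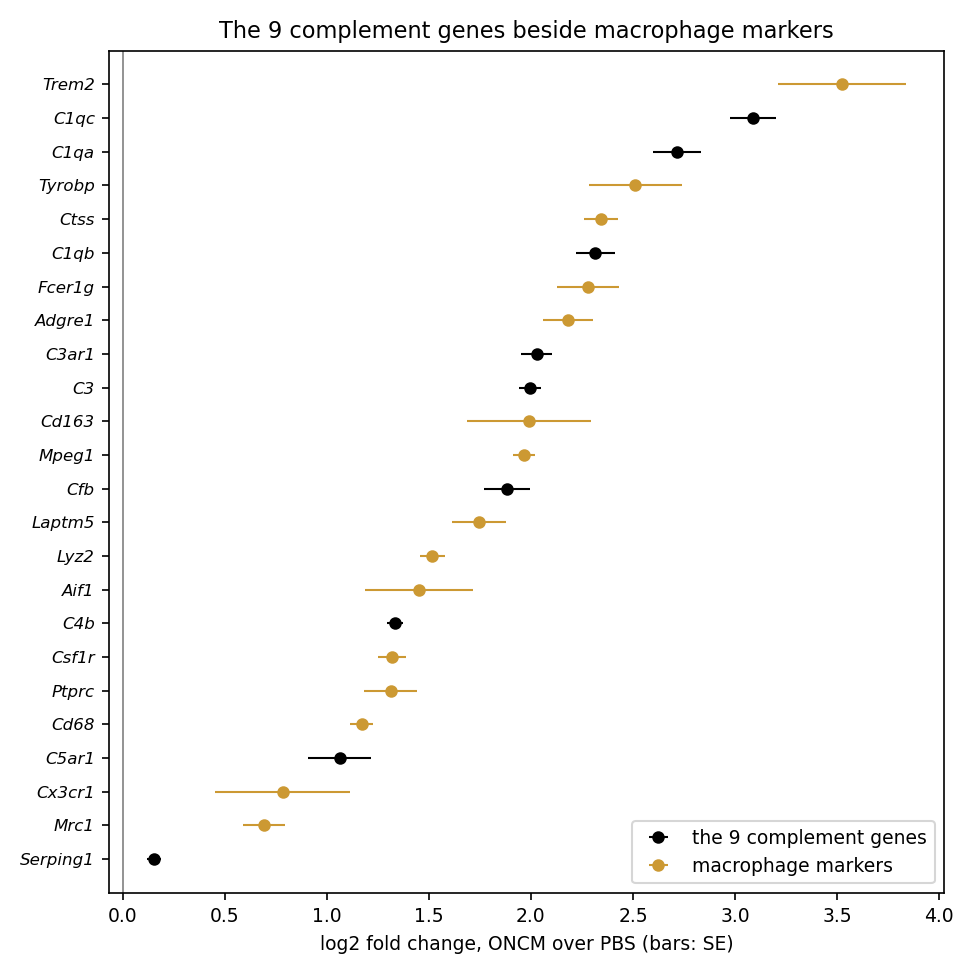
Log2 fold change of ONCM over PBS (horizontal axis, bars give the SE) for the 9 complement genes and 15 macrophage markers, ordered by value. Of the complement genes C1qc, at 3.09, lies below Trem2 only, and Serping1, at 0.16, lies below every marker.

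Genes lying near the 9 complement genes were compared by position. Within 50 kb of a member of the set lay 25 other protein-coding genes, of which 8 rose, 1 fell, 14 did not pass and 2 were not tested, with a median log2 fold change of 0.07, where 23.9% of all tested genes rose and 24.4% fell. C4a, which also lies within this distance of Cfb and rose, is a transcribed pseudogene in the RefSeq table and is not in these counts. The C1q cluster is flanked by Ephb2, a guidance receptor gene that rose by 0.56, and Epha8, which stayed under 1 CPM and did not pass. Around C3, neither Trip10 nor Gpr108 passed. Cfb lies 2 bases from Nelfe and 88 bases from C2, and whether reads at its ends were shared was not tested. Nelfe did not pass (log2 fold change 0.12, SE 0.06), and C2 rose by 0.73. Ube2l6, an interferon-induced ubiquitin-conjugating enzyme gene 23384 bases from Serping1, rose by 0.71.

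Profiles over the 6 libraries were compared by Euclidean distance of centred log2 CPM, as a description. The search covered genes with a mean of at least 1 CPM, 15275 for C3 and 15273 for the mean of the C1q chain genes. Nearest to C3 were Slc15a3, an endolysosomal peptide transporter gene (distance 0.112), Iigp1, an immunity-related GTPase gene (0.142), C3ar1 (0.149), Gm7361 (0.149) and 5031410I06Rik (0.153). Slc15a3 went from 4.91 ± 0.107 to 18.9 ± 0.277 CPM and Iigp1 from 10.4 ± 0.367 to 43.0 ± 1.17 CPM. Nearest to the mean of the C1q chain genes were Gm6465 (0.0977), the glycosyltransferase gene Galnt6 (0.145), the chemokine gene Cxcl5 (0.160), Ankrd1 (0.161) and Lmo7 (0.176). Lmo7 was the most abundant of these by CPM and went from 21.6 ± 0.537 to 141.7 ± 4.08 CPM.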

How the data were processed

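Per the file header, the authors deposited raw read counts, FPKM and TPM per gene for 6 libraries, and the submitters' processing notes name the build mm10. The sources used here do not give the aligner, the counter, the annotation release or the strand setting. The raw counts deposited by the authors entered edgeR 4.0.16 under R 4.3.3 (filterByExpr, TMM scaling, robust quasi-likelihood F-test, no covariate), with Benjamini-Hochberg adjustment over 20354 tested genes and a threshold of 0.05. The SE is the log2 fold change over the square root of F. The authors' deposited TPM values served to compare levels between genes and, with limma 3.58.1, as an alternative. The 6 deposited FPKM columns were not used. Positions come from RefSeq's table of GRCm38.p6 (45679 of 45777 genes matched). Library totals of 53770820 to 64477014 counts set the precision, and counting limits cover counting error only. Replicates differed by more than sampling noise (chi-square per degree of freedom 2.85 to 7.72 within groups). The test was also run on simulated counts for 20006 genes, with 50 genes changed at each fold, all with a mean above 1 CPM. It recovered 66% of 1.25-fold, 78% of 1.5-fold, 96% of 2-fold and 100% of 4-fold changes, with 6.08% false among its calls. Far fewer genes changed in that simulation than were called in the data, so these shares may not hold for the data. All 9 genes are named, with the up to 4 genes of each role having the smallest p; other genes of the lists are named by count or call. A further listed gene is not reported here, and the counts leave it out. GAGGAA was added after the other 4 motifs had been counted. The genes, lists and tests were chosen with earlier results of these data known. Alternatives were DESeq2 1.42.0 and its size factors, other filters, TPM scales, a replicate block, leaving out libraries, dropping chromosomes X, Y and MT, and summing C4a with C4b.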

Additional observations from a re-analysis of the deposited data

How the results depend on the processing

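All 9 complement genes rose under each of the 15 alternatives. Their median log2 fold change was 1.59 on the log2(TPM + 1) scale and 1.85 on log2(TPM + 0.1), which change both the scale and the pseudocount (the cause was not tested), and 1.98 to 2.02 when a library was left out. Over all genes 9829 changed, 49.5% of them upward, against 9259 and 39.2% on log2(TPM + 1). With the replicate block 9597 genes, all 9 of the set and 23 of the other complement genes changed. Same-numbered libraries did not deviate together (correlations of -0.045, -0.012 and 0.0017), and no library correlated best with its own number. With 3 libraries per group, these values cannot decide whether the numbers mark pairs. Some genes that did not pass changed sign, and the cause was not tested. Cr1l (0.0066) had -0.00041 without a filter, -0.052 on log2(TPM + 1) and -0.053 on log2(TPM + 0.1), and -0.057 to 0.048 with a library left out. Clu (0.012) had -0.051 on both TPM scales (-0.0506 and -0.0507), and -0.032 to 0.041 with a library left out. C5ar2 had -0.0083 on log2(TPM + 1). With a library left out, C5ar2 ranged from -0.34 to 0.52, Csmd2 from -0.18 (adjusted p = 0.0498 without ONCM replicate 2) to 0.016 and Csmd3 from -0.24 to 0.026. C8g passed only without ONCM replicate 3 (-1.01, edgeR adjusted p = 0.0409). Genes with under about 20 counts in a library, Mbl1, Mbl2 and C5ar2 among them, are limited by depth.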
